A study of Homo sapiens with 6 samples.

Results

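Expression of 10 marker genes of glial identity and stemness was examined in U251 cells, an established human glioma cell line, with or without exposure to the inhaled anesthetic sevoflurane (Sev). The genes were GFAP, VIM, NES, S100B, SOX2, SOX9, AQP4, CD44, PROM1 and OLIG2. They were chosen by name as classical markers of astrocytes, neural stem cells, oligodendrocyte precursors and glioma stem cells, and they are 10 of the 61496 features in the table. The control group was 3 libraries of untreated U251 cells, and the Sev group was 3 libraries of U251 cells after 2 h of Sev gas. The labels name no genetic change in either group, and both groups were the same line grown in DMEM with FBS. Sev at 1.7%, at 3.4% and at 5.1% is named in the treatment protocol, without tying a concentration to a library. A legend of the study gives 5.1% for the sequenced cells. The labels do not say whether the libraries of a group came from separate cultures, so the p-values measure the spread between these libraries, which may be technical.

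Astrocytes are recognised by the intermediate filament GFAP, the calcium-binding protein S100B and the water channel AQP4, while vimentin (VIM) and nestin (NES) form the filaments of glial progenitors and neural stem cells. The transcription factors SOX2, SOX9 and OLIG2 hold neural and glial progenitors in their state, and all of them are widely used to describe glioma cells. CD44, the surface receptor for hyaluronan, and PROM1, the membrane glycoprotein also called CD133, are common surface markers of glioma stem cells, and high CD44 is a usual mark of the mesenchymal type of glioblastoma.

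Total RNA was depleted of ribosomal RNA, ligated to strand-specific adapters and sequenced. The libraries held 38624292 to 46318311 counts, and the first principal component, with 69.0% of the variance, separated the groups. Levels are given below as TMM-normalized CPM, the counts of a gene scaled to a common library total and corrected for library composition. Differences are log2 fold changes of Sev over control with their standard error (SE), tested with edgeR's quasi-likelihood test across 27514 features and adjusted by the Benjamini-Hochberg method. A gene was called changed at an adjusted p under 0.05. It was past the size limit where its log2 fold change was above 1 or below −1 with an unadjusted p under 0.05.

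In Sev-treated U251 cells, CD44 rose, SOX2, S100B and OLIG2 fell, and the filament genes GFAP, VIM and NES, the transcription factor SOX9 and PROM1 did not pass the test. AQP4 had too few counts to be tested. Thus 4 of the 9 tested markers were called, beside 43.7% of all tested features. The single call upward stood beside 22.1% of features called higher, and the 3 calls downward stood beside 21.5% called lower. S100B and OLIG2 were past the size limit, beside 23.5% of features past it in either direction. The 3 control and 3 Sev libraries did not overlap in level for 4 of the 9 tested markers, beside 56.5% of tested features. The median log2 fold change was 0.03 over the 9 markers and −0.0056 over all tested features. The share of called markers was therefore close to that of the transcriptome, and the account below is of single genes.

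**Figure D1:**
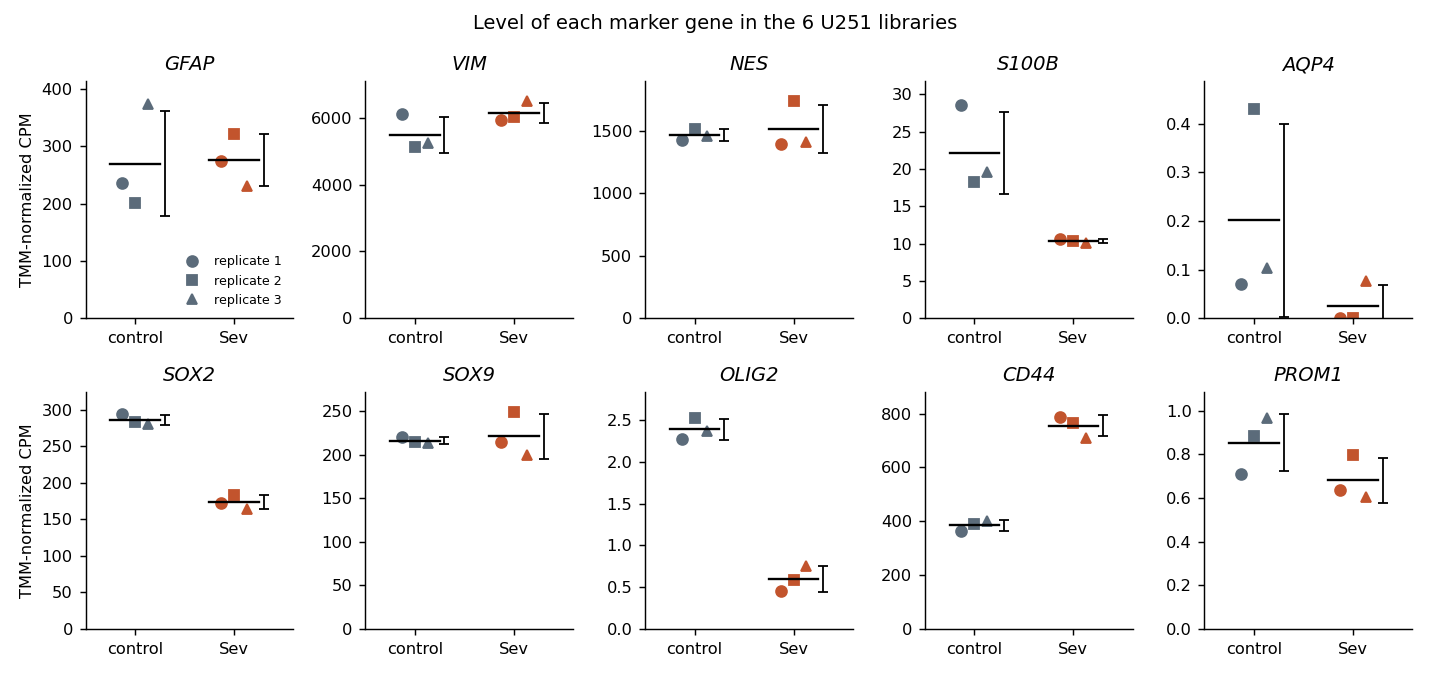
TMM-normalized CPM (vertical axes, linear, starting at 0) of each of the 10 markers in the 3 control and 3 Sev libraries. Each point is a library, the horizontal line is the group mean and the error bar is 1 SD, drawn only above 0. The groups do not overlap for CD44, SOX2, S100B and OLIG2, and control replicate 3 stands above the other GFAP values.

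Among the filament genes, VIM (ENSG00000026025) encodes the main intermediate filament protein of mesenchymal and immature glial cells. It lies at chromosome 10, 17228259 to 17237593, on the plus strand (GRCh38, as are all gene positions below). Its level was 6101, 5123 and 5231 CPM in control cells and 5933, 6021 and 6497 CPM in Sev-treated cells. The groups overlapped, because control replicate 1 was above 2 of the Sev libraries. VIM had a log2 fold change of 0.17 (SE 0.11, adjusted p = 0.243, edgeR), with a 95% interval of 0.945- to 1.33-fold. VIM was among the most abundant transcripts of these cells, above 99.97% of tested features.

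NES (ENSG00000132688) encodes nestin, a large filament protein of neural stem cells that assembles with vimentin, at chromosome 1, 156668763 to 156677397, on the minus strand. Its level was 1422, 1515 and 1457 CPM in control cells and 1391, 1735 and 1412 CPM in Sev-treated cells. Sev replicate 2 was the highest library, while the other two Sev libraries were below every control library. NES had a log2 fold change of 0.05 (SE 0.11, adjusted p = 0.752, edgeR), and the 95% interval was 0.870- to 1.23-fold. The count ratio of NES to VIM within each library overlapped between groups as well, with 0.269 ± 0.0323 in control and 0.247 ± 0.0370 in Sev (SD, n = 3).

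GFAP (ENSG00000131095), the filament protein of mature astrocytes, lies at chromosome 17, 44903161 to 44916937, on the minus strand. Its level was 236, 201 and 373 CPM in control cells and 275, 321 and 230 CPM in Sev-treated cells. Control replicate 3 was the highest of the 6 libraries and control replicate 2 the lowest, so the Sev values lay within the control range. The log2 fold change was 0.03 (SE 0.23, adjusted p = 0.930, edgeR), and the 95% interval of 0.708- to 1.47-fold was wider than those of VIM and NES. Without control replicate 3 the log2 fold change was 0.33, still not called.

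S100B (ENSG00000160307) encodes a calcium-binding protein that astrocytes hold in the cytoplasm and release. The gene lies near the end of chromosome 21, 46598962 to 46605208, on the minus strand. It was counted 1206, 725 and 954 times in control libraries and 398, 389 and 400 times in Sev libraries. The corresponding levels were 28.5, 18.3 and 19.7 CPM in control cells and 10.6, 10.4 and 10.1 CPM in Sev-treated cells. Every Sev library was below every control library, and the Sev libraries were close together, whereas control replicate 1 stood above the other controls. Mean S100B in Sev-treated cells was 46.7% of the control mean. Its log2 fold change was −1.10 (SE 0.18, adjusted p = 0.00215, edgeR), which was larger in size than that of 78.0% of tested features. Without control replicate 1 the log2 fold change was −0.89 and the gene stayed called, but it was no longer past the size limit.

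S100B and GFAP, both markers of astrocytes, thus differed within these libraries. The count ratio of S100B to GFAP was 0.121, 0.0912 and 0.0526 in control libraries and 0.0384, 0.0323 and 0.0439 in Sev libraries. The ranges did not overlap, and control replicate 3, with its high GFAP, lay nearest to the Sev values. These are bulk libraries, in which fewer cells that express a gene and less of its RNA per cell cannot be told apart.

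AQP4 (ENSG00000171885), the water channel of astrocyte end-feet, lies at chromosome 18, 26852038 to 26865818, on the minus strand. It was counted 3, 17 and 5 times in control libraries and 0, 0 and 3 times in Sev libraries. A count of 0 allows up to 3 counts, which is 0.0796 and 0.0798 CPM in Sev replicates 1 and 2. AQP4 was therefore at or near 0 in both groups, and no fold is given.

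SOX2 (ENSG00000181449), a transcription factor that maintains neural stem cells, lies at chromosome 3, 181711924 to 181714436, on the plus strand. It was counted 12427, 11195 and 13607 times in control libraries and 6475, 6896 and 6499 times in Sev libraries. Its level was 294, 283 and 280 CPM in control cells and 172, 184 and 164 CPM in Sev-treated cells. All Sev libraries were below all control libraries, and the spread within a group was far smaller than the gap between the groups. Mean SOX2 in Sev-treated cells was 60.6% of the control mean. Its log2 fold change was −0.72 (SE 0.075, adjusted p = 0.000367, edgeR), with a 95% interval of −0.89 to −0.55, which leaves it short of the size limit. The change was larger in size than that of 63.3% of tested features.

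SOX9 (ENSG00000125398), a related factor that drives the switch of neural stem cells to glial fates, lies at chromosome 17, 72121020 to 72126420, on the plus strand. Its level was 221, 215 and 214 CPM in control cells and 215, 250 and 200 CPM in Sev-treated cells. Sev replicate 2 was the highest library and Sev replicate 3 the lowest. The log2 fold change was 0.03 (SE 0.094, adjusted p = 0.802, edgeR), and the 95% interval was 0.879- to 1.19-fold. Because library scaling cancels in a ratio within a library, SOX2 was also read against SOX9. The count ratio was 1.33, 1.31 and 1.31 in control libraries and 0.799, 0.735 and 0.821 in Sev libraries. The ratio was lower in every Sev library than in every control library. SOX9 was not called, so the ratio repeats the SOX2 call from the same counts and is no separate support.

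OLIG2 (ENSG00000205927), the basic helix-loop-helix factor of oligodendrocyte precursors, lies at chromosome 21, 33025845 to 33029196, on the plus strand. It was counted 96, 100 and 115 times in control libraries and 17, 22 and 30 times in Sev libraries. Its level was low in both groups, with 2.27, 2.52 and 2.37 CPM in control cells and 0.451, 0.586 and 0.757 CPM in Sev-treated cells. The groups did not overlap, and mean OLIG2 in Sev-treated cells was 25.05% of the control mean. The log2 fold change was −1.99 (SE 0.24, adjusted p = 0.000693, edgeR), the largest among the 9 tested markers and larger in size than that of 92.5% of tested features. In control cells OLIG2 was above 43.3% of tested features by level, against 98.5% for SOX2 and 97.6% for SOX9.

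CD44 (ENSG00000026508) binds hyaluronan in the matrix and is linked to the actin cytoskeleton inside the cell. The gene spans chromosome 11, 35138870 to 35232402, on the plus strand. It was counted 15398, 15391 and 19494 times in control libraries and 29702, 28747 and 28173 times in Sev libraries. Its level was 364, 388 and 402 CPM in control cells and 788, 765 and 711 CPM in Sev-treated cells. The lowest Sev library stood far above the highest control library. CD44 had a log2 fold change of 0.97 (SE 0.082, adjusted p = 0.000174, edgeR), with a 95% interval of 1.72- to 2.24-fold around a ratio of means of 1.96. It had the smallest p of the markers and was just short of the size limit. Without Sev replicate 3, the lowest Sev library, its log2 fold change was 1.02 and it was past that limit.

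PROM1 (ENSG00000007062), a pentaspan glycoprotein of membrane protrusions, lies at chromosome 4, 15963076 to 16084378, on the minus strand. It was counted 30, 35 and 47 times in control libraries and 24, 30 and 24 times in Sev libraries. The groups overlapped after scaling, with 0.854 ± 0.132 CPM in control and 0.680 ± 0.103 CPM in Sev (SD, n = 3). Its log2 fold change was −0.33 (SE 0.27, adjusted p = 0.348, edgeR), and its 95% interval of 0.521- to 1.22-fold was the widest of the 9 tested markers on the log2 scale. A fall or a small rise of PROM1 within that interval was not detectable in these libraries.

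**Figure D2:**
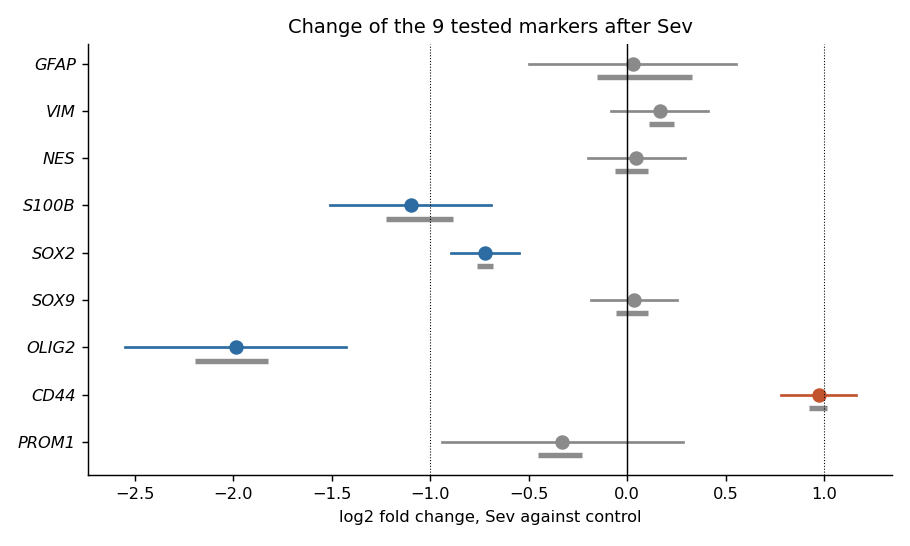
Log2 fold change of Sev over control (horizontal axis) for the 9 tested markers, as points with 95% intervals from edgeR. The thick grey bar under each point is the range when each library is left out, and dotted lines mark −1 and 1. CD44 lies right of 0 and SOX2, S100B and OLIG2 lie left of 0, while the intervals of the other 5 cross 0.

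The 2 surface markers of stemness therefore gave different readouts. CD44 was counted at least 15391 times in every library and rose, whereas PROM1 was counted at most 47 times and was not called. Read against the stem cell factor SOX2, CD44 stood at a count ratio of 1.24, 1.37 and 1.43 in control libraries and 4.59, 4.17 and 4.33 in Sev libraries. Since CD44 was called higher and SOX2 lower, this ratio restates both calls and adds no support to them. Against the filament gene VIM, CD44 stood at 0.0707 ± 0.00961 in control and 0.123 ± 0.0122 in Sev (SD, n = 3), again without overlap. SOX2 against NES fell from 0.195 ± 0.0103 to 0.115 ± 0.00896, and these ranges did not overlap either. VIM and NES were not called, so these ratios repeat the calls of CD44 and SOX2 from the same counts and are no separate support.

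Levels of different genes can be compared only per length, for which the deposited FPKM values (fragments scaled by gene length and library size) were used. In control cells the order was VIM (905 ± 107 FPKM), NES (223 ± 3.05), SOX2 (96.6 ± 4.31), SOX9 (46.8 ± 1.68), CD44 (32.8 ± 1.21), GFAP (20.4 ± 6.90), S100B (10.5 ± 2.85), OLIG2 (0.617 ± 0.0239), PROM1 (0.0944 ± 0.0144) and AQP4 (0.0254 ± 0.0277; SD, n = 3). No neighbours in this order overlapped in FPKM between their lowest and highest libraries. The progenitor filaments and SOX factors thus lay above the mature astrocyte markers in control cells. In Sev-treated cells CD44 (58.2 ± 2.34 FPKM) lay above SOX2 (52.9 ± 1.20) and SOX9 (43.2 ± 3.54), while the other 7 markers kept their places. The values of CD44 and SOX2 in Sev-treated cells were only 1.10-fold apart. When TMM-normalized CPM were divided by the annotated exon length instead, CD44 and SOX2 overlapped in Sev-treated cells, and GFAP and S100B overlapped in control cells.

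**Figure D3:**
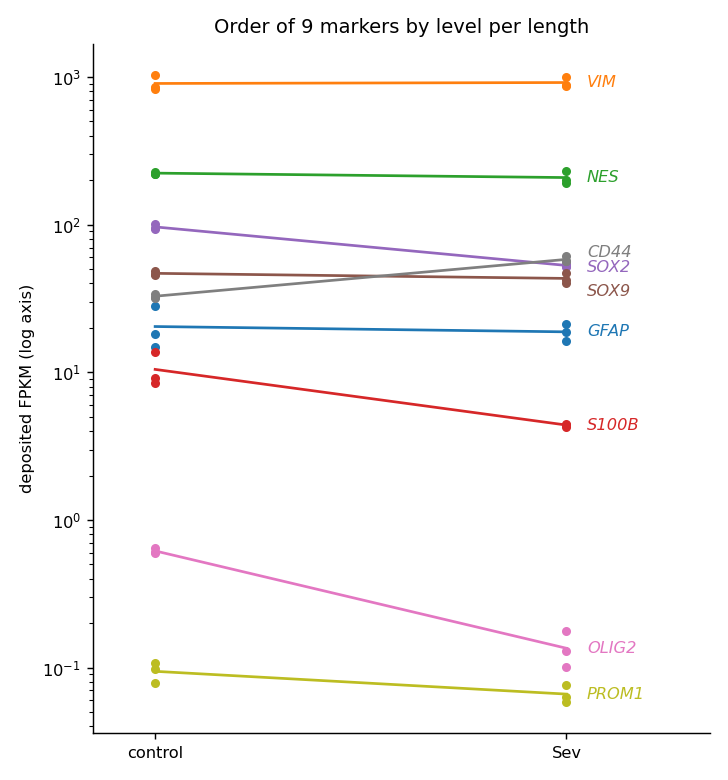
Deposited FPKM (vertical axis, log scale) of 9 markers in the control and Sev libraries. Points are libraries and lines join group means, and AQP4 is left out because it is listed at 0 in 2 Sev libraries. The lines of CD44 and of SOX2 and SOX9 cross, since CD44 is 5th from the top in control cells and 3rd in Sev-treated cells.

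Several markers lie within or opposite other annotated genes. Reads of such pairs may be shared, since whether the counting used strand is not given in the sources used here. The pairs were taken from the annotation by overlap, and those outside the marker lists were added after values were seen. SOX2 is a single-exon gene inside an intron of SOX2-OT, a long non-coding RNA on the same strand, and the annotated exons of the pair share 0 bases. SOX2-OT was counted 22567, 18781 and 25339 times in control libraries and 5584, 4340 and 5575 times in Sev libraries. Its log2 fold change was −1.92 (SE 0.11, adjusted p = 5.8e-05, edgeR). Within each library, SOX2-OT stood at 1.82, 1.68 and 1.86 times the SOX2 count in control and 0.862, 0.629 and 0.858 times in Sev. These are counts and not levels per length, and the ratio was lower in every Sev library than in every control library.

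CD44-AS1 runs antisense to the 3′ part of CD44 and shares 84 exon bases with it. It was counted 150, 141 and 163 times in control libraries and 289, 244 and 278 times in Sev libraries, a log2 fold change of 1.02 (SE 0.14, adjusted p = 0.00123, edgeR). CD44 was counted 110 ± 8.55 times as often as CD44-AS1 in control and 107 ± 9.13 times in Sev (SD, n = 3), and these ranges overlapped. A sense-intronic transcript within CD44, ENSG00000251194, shares no exon bases with it and was counted 239 to 309 times in control libraries and 404 to 567 times in Sev libraries. Its log2 fold change was 0.99 (adjusted p = 0.00213, edgeR). The reads of CD44 itself outnumbered those of both transcripts in every library.

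GFAP overlaps CCDC103 and FAM187A on the opposite strand, each over 2230 exon bases. CCDC103 was counted 117 to 229 times in control libraries and 70 to 89 times in Sev libraries, with a log2 fold change of −0.85 (adjusted p = 0.0161, edgeR), and the call was lost without control replicate 3 or Sev replicate 1 and with limma on unfiltered log2(FPKM + 1). FAM187A was counted 47 to 96 times in control libraries and 0 to 15 times in Sev libraries. FAM187A and AQP4-AS1, the antisense transcript of AQP4, passed the filter on low counts only through the control libraries, which fixes their direction, so they are given by counts alone. The counts of CCDC103 and FAM187A were small beside those of GFAP, which were at least 7946 in every library. VIM-AS1, antisense to the 5′ end of VIM, had a log2 fold change of 0.54 (adjusted p = 0.0448, edgeR), a call that was lost in 11 of the 15 alternative analyses and held only without Sev replicate 1 among the 6 fits that leave out a library. AQP4-AS1 was counted 13 to 20 times in control libraries and 0 to 5 times in Sev libraries. SOX9-AS1, with 172 to 463 and 290 to 585 counts, was not called (log2 fold change 0.40, adjusted p = 0.391, edgeR), as SOX9 was not. At the 3′ end of PROM1, FGFBP2 shares 166 exon bases on the same strand and was counted 166 to 399 times in control libraries and 67 to 89 times in Sev libraries. It fell (log2 fold change −1.70, adjusted p = 0.00419, edgeR). FGFBP2 had more counts than PROM1 in all 6 libraries, and how reads of the shared stretch were assigned is not given, so the PROM1 counts are uncertain.

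**Figure D4:**
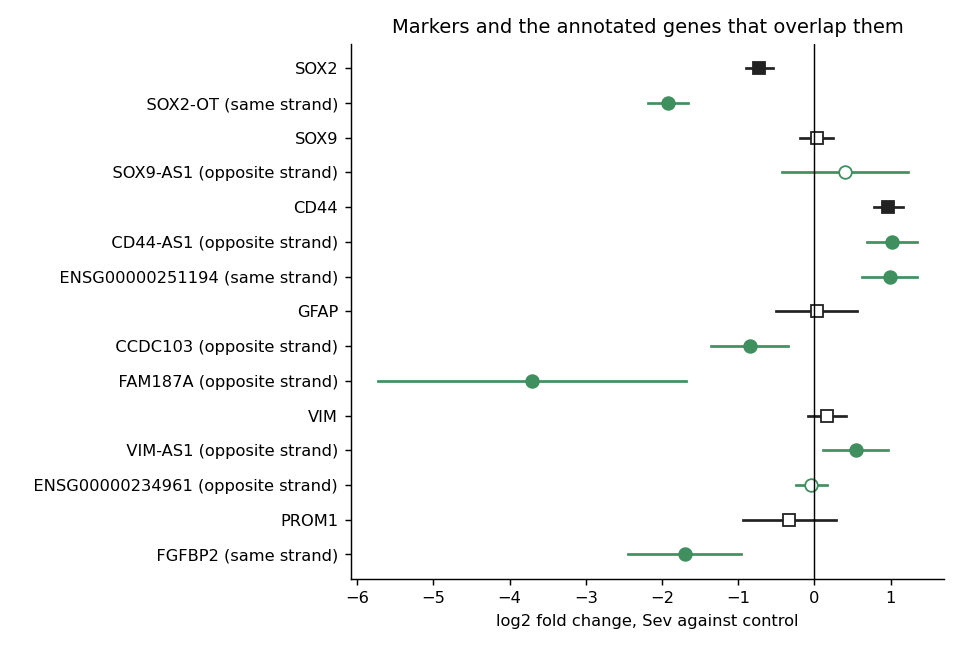
Log2 fold change of Sev over control (horizontal axis, with 95% intervals from edgeR) for 6 markers (squares) and the annotated genes that overlap them (circles). Filled symbols passed an adjusted p under 0.05. SOX2-OT lies further below 0 than SOX2, CD44-AS1 and the intronic transcript lie close to CD44, and FGFBP2 lies below 0 beside an uncalled PROM1.

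The sequences before the start sites of CD44 and SOX2 are shown because among the called markers these had the smallest SE in each direction. They are RefSeq windows on GRCh38.p14 and run from 250 bases before to 50 bases after the annotated start. The set of windows used here held 6 of the 10 markers. GFAP, S100B, SOX9 and OLIG2 were not in that set, which says nothing of RefSeq itself. The CD44 stretch is chr11:35138921-35139220 and the SOX2 stretch is chr3:181711675-181711974, both on the plus strand. Both are written 5′ to 3′ in lower case, with matches to the motifs searched in capitals.
SOX2: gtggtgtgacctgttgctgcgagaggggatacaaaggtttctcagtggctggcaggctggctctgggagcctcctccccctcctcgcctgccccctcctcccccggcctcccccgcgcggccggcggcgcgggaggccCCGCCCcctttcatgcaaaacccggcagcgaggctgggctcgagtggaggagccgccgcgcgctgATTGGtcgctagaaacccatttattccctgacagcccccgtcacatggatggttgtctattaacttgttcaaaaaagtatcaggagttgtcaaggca
CD44: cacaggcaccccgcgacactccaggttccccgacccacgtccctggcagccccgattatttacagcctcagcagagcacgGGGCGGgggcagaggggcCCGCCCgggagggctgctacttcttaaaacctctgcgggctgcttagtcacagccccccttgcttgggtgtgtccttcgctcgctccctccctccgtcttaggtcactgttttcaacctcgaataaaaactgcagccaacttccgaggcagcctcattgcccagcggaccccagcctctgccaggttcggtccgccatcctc
The motifs were searched on both strands, and overlapping matches were kept. They were the TATA box (TATAAA), the CCAAT box (CCAAT), the GC box bound by SP1 (GGGCGG), the AP-1 site (TGANTCA), the cAMP response element (TGACGTCA), the C/EBP-ATF response element (TGATGNAAN) and the E-box (CACGTG). CD44 held 2 GC boxes, and SOX2 held 1 GC box and 1 CCAAT box. Of 35116 such windows, 44.95% held a GC box and 34.6% a CCAAT box, so these matches are common. The other motifs were in 11.5% (TATA box), 7.71% (AP-1), 1.85% (cAMP response element), 3.61% (C/EBP-ATF) and 7.26% (E-box) of windows. A match describes the letters and is not evidence of binding, and their absence from 300 bases says nothing of the factor. Of the other markers with a window in the set used, NES held 4 GC boxes and VIM held 1. PROM1 held 3 GC boxes, 1 CCAAT box and 1 AP-1 site over 4 windows, and AQP4 held CCAAT boxes and 1 TATA box over 3 windows, of which 2 overlap.

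The features with the expression pattern most like CD44 over the 6 libraries were CRTAC1, FEM1A and PLEKHD1. Likeness was the Pearson correlation of log2(CPM + 0.1), which was 0.999 for each. The 6 points fall into the study's 2 groups and share libraries and scaling, so the value describes a common step between groups. FEM1A had 62.0 ± 5.07 CPM in control and 167 ± 8.87 CPM in Sev (SD, n = 3), and PLEKHD1 had 1.45 ± 0.107 and 6.72 ± 0.748 CPM. CRTAC1 was counted 0 to 3 times in control libraries and 46 to 63 times in Sev libraries. It passed the filter on low counts only through the Sev libraries, which fixes its direction. Its control mean of 0.0290 CPM was below the 0.1 CPM added before the correlation.

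The markers were then set in wider lists of genes that describe the same identities. Over 10 lists and the genes antisense to the markers, 132 of 160 genes in the table were tested, of which 39 rose and 22 fell. That is 46.2%, beside 43.7% of all features. A gene with few or no counts in one group passed the filter on low counts only through the other group, so its direction was fixed by that filter. Such genes are given below by their counts. Where at least 10 counts were required in every library, which removes them, 33 list genes were called higher and 18 lower. Over all 22377 features tested with that filter, 4888 were called higher and 5149 lower. The astrocyte list, without the markers themselves, had 3 genes called higher and 2 called lower among 17 tested, which is 29.4% beside 43.7% of all tested features. Its median log2 fold change was 0.04 and was −0.11 when scaled by library size only, and 1 gene was called higher with limma on filtered FPKM. The higher ones included APOE, the apolipoprotein astrocytes secrete (0.353 ± 0.128 to 2.20 ± 1.24 CPM), and SLC1A2, the main astrocytic glutamate transporter (1.82 ± 0.577 to 9.58 ± 1.95 CPM). NFIA, a factor that starts gliogenesis, fell from 75.6 ± 35.9 to 19.1 ± 9.94 CPM (log2 fold change −1.98, adjusted p = 0.0107, edgeR), a call lost with limma on unfiltered log2(FPKM + 1). SPARCL1, a matrix protein of astrocytes, was counted 19 to 31 times in control and 2 to 8 times in Sev, and it passed the filter on low counts only through the control libraries. The number of the list called lower was 1 without control replicate 1.

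Among 20 tested genes of the neural stem and glioma stemness list, 6 rose and 5 fell, beside 22.1% of all tested features called higher and 21.5% called lower. The median log2 fold change was 0.19, and it was 0.05 with 4 called higher when scaled by library size only. With limma on unfiltered log2(FPKM + 1), 3 were called higher. ID1, an inhibitor of differentiation factors, rose from 107 ± 6.89 to 469 ± 102 CPM (log2 fold change 2.13, adjusted p = 0.000112, edgeR), and MYC, a growth-promoting factor, rose from 34.5 ± 11.8 to 108 ± 47.4 CPM (1.65, adjusted p = 0.011, edgeR). With limma on unfiltered log2(FPKM + 1), MYC was not called. POU3F2, a neural factor that partners with SOX2, fell from 254 ± 13.5 to 98.5 ± 6.09 CPM (−1.36, adjusted p = 6.7e-05, edgeR). NANOG, a pluripotency factor with processed copies elsewhere in the genome that make its counts uncertain, was counted 21 to 35 times in control and 0 to 3 times in Sev. NANOG passed the filter on low counts only through the control libraries. Factors of this list thus moved in both directions.

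The SOX family list had 2 called higher and 3 called lower among 12 tested, which is 41.7% beside 43.7% of all tested features. SOX15 rose (log2 fold change 1.14, adjusted p = 0.00411, edgeR) and SOX13 rose from 139 ± 20.8 to 233 ± 67.4 CPM. SOX7 was counted 36 to 46 times in control and 8 to 24 times in Sev, and SOX10 was counted 27 to 41 and 13 to 18 times, and both were called lower. SOX7 had 8 counts in Sev replicate 2 and passed the filter on low counts only through the control libraries. The call of SOX13 was lost in 5, that of SOX7 in 8 and that of SOX10 in 7 of the alternative analyses. The count called lower ranged from 0 to 3 when a library was left out, with 0 without control replicate 3 and 1 where another control library or Sev replicate 1 was left out. The count called higher was 1 without control replicate 2 or 3. SOX1, SOX14 and SOX17 had no count in any library.

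The oligodendrocyte list had 3 called higher and 2 called lower among 11 tested, which is 45.5% beside 43.7% of all tested features. OLIG1, the neighbour of OLIG2 on chromosome 21, was counted 21 to 37 times in control and 3 to 12 times in Sev, and it passed the filter on low counts only through the control libraries. The number called lower was 0 where control replicate 2 or 3, or Sev replicate 1 or 3, was left out. SOX10, the lineage factor named above, was the other call downward. GPR17, a receptor of committed precursors, was counted 0 to 5 times in control and 39 to 83 times in Sev, and MOBP, a myelin protein, 0 to 8 and 52 to 80 times. GPR17 and MOBP passed the filter on low counts only through the Sev libraries. The number of the list called higher was 1 where at least 10 counts were required in every library and 0 with limma on filtered log2(FPKM + 1).

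CD44 was read with its binding partners and with genes of the mesenchymal type of glioblastoma. Of 16 tested genes of hyaluronan and CD44 partners, 4 rose and 4 fell, beside 22.1% of all tested features called higher and 21.5% called lower. Over the 15 alternative analyses, 1 to 4 were called higher and 3 to 5 lower. EZR, the ezrin linker between CD44 and actin, rose from 399 ± 51.1 to 713 ± 11.8 CPM (log2 fold change 0.84, adjusted p = 0.000735, edgeR), and SPP1, the secreted ligand osteopontin, rose from 403 ± 45.2 to 545 ± 6.30 CPM, a call also lost with limma on unfiltered log2(FPKM + 1). The number called higher was 2 without control replicate 3 or Sev replicate 3, and also when scaled by library size only. HMMR, another hyaluronan-binding protein with a role at the mitotic spindle, fell from 31.4 ± 2.03 to 9.94 ± 1.33 CPM (−1.66, adjusted p = 0.000133, edgeR), and the hyaluronan synthase HAS1 fell to 11 to 26 counts from 61 to 75. In the mesenchymal list, 8 rose and 2 fell among 19 tested, beside the same 22.1% and 21.5% of all tested features. The median log2 fold change was 0.34, and it was 0.20 with 6 called higher when scaled by library size only. With limma on unfiltered log2(FPKM + 1), 4 were called higher. THBS1, a matrix glycoprotein, rose from 1210 ± 163 to 2520 ± 135 CPM (1.06, adjusted p = 0.000436, edgeR) and RUNX1, a transcription factor of this type, rose by 0.73 (adjusted p = 0.00134, edgeR). FN1, the matrix protein fibronectin, and S100A11, a calcium-binding protein, were called lower at log2 fold changes of −0.36 and −0.29. Their calls were lost in 6 and 9 of the 15 alternative analyses, and both calls were lost without any 1 of the control libraries or without Sev replicate 1.

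The intermediate filament and linker list, which held the relatives of GFAP, VIM and NES, had 3 called higher and 1 called lower among 13 tested, which is 30.8% beside 43.7% of all tested features. SYNE2, a nuclear linker protein, rose from 594 ± 24.3 to 850 ± 70.6 CPM (log2 fold change 0.52, adjusted p = 0.00294, edgeR), and the keratin KRT18 rose by 0.49 (adjusted p = 0.00557, edgeR). LMNB1, a nuclear lamin, fell from 139 ± 17.4 to 100 ± 12.8 CPM, and its call was lost without Sev replicate 1.

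Markers of other cell types were read in the same libraries. The neuron list had 2 called higher and 2 called lower among 12 tested, which is 33.3% beside 43.7% of all tested features. Of these, 1 was called higher where at least 10 counts were required in every library, and also with limma on filtered FPKM. ELAVL3, a neuronal RNA-binding protein, was counted 5 to 14 times in control and 77 to 140 times in Sev, and the tubulin TUBB3 rose from 84.2 ± 16.2 to 135 ± 7.03 CPM. ELAVL3 passed the filter on low counts only through the Sev libraries. ENO2, an enolase of neurons, and GAD1, an enzyme of GABA synthesis, fell by 1.22 and by 1.16 on the log2 scale. Of the 11 microglia and immune genes, 5 were tested and 3 rose, beside 22.1% of all tested features called higher. The summed level of the list was 7.02 to 8.96 CPM in control and 21.0 to 23.2 CPM in Sev. Much of that difference lay in TMEM119 (mean 0.0421 CPM in control and 7.27 CPM in Sev) and ITGAM (0.0410 and 2.00 CPM). The genes that differed most were TMEM119, counted 0 to 5 times in control and 217 to 337 times in Sev, and ITGAM, counted 0 to 3 and 33 to 130 times. Both passed the filter on low counts only through the Sev libraries, and 1 gene of the list was called higher where at least 10 counts were required in every library. Uncalled genes of this list differed in level. AIF1 and TYROBP had no count in any library, whereas CD68 was counted 88 to 198 times and P2RY12 18 to 55 times per library. Of the 8 endothelial and pericyte genes, 7 were tested and 4 rose, beside the same 22.1%, among them CLDN5 (log2 fold change 1.14) and PECAM1 (0.92), whose calls were lost in 3 and 9 of 13 alternative analyses, with a summed level of 47.7 to 50.3 CPM in control and 59.7 to 74.6 CPM in Sev. The number of calls upward in this list was 1 without control replicate 3 and 2 in each fit that left out another library except Sev replicate 3. When scaled by library size only, 2 endothelial and pericyte genes were called higher and 1 lower. Whether these levels took part in the changes of the 10 markers was not tested.

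**Figure D5:**
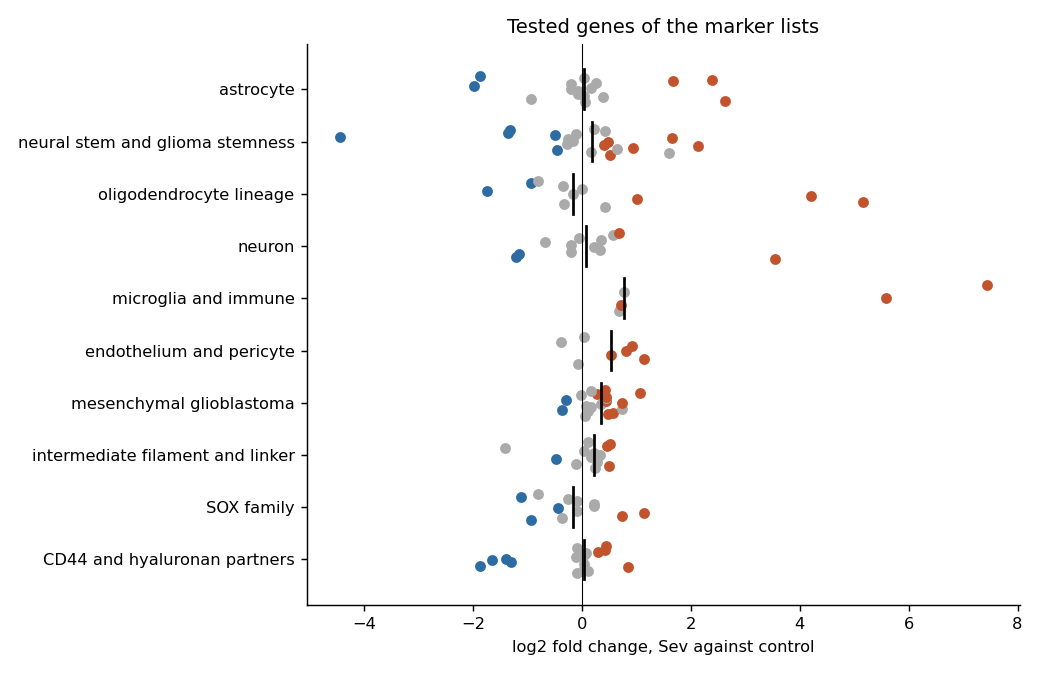
Log2 fold change of Sev over control (horizontal axis) of every tested gene of the 10 marker lists, a row per list. Points are orange where called higher and blue where called lower by edgeR at an adjusted p under 0.05, grey otherwise, and the black line is the list's median. Called genes lie on both sides of 0 in 8 lists. The points furthest to the right, TMEM119, ITGAM, GPR17 and MOBP, had at most 8 counts in any control library.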

How the data were processed

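Libraries were grouped by their labels into 3 untreated control and 3 Sev-treated U251 samples. No label ties a Sev concentration to a library, and a legend of the study gives 5.1% for the sequencing. The authors deposited raw counts per feature and a second table of FPKM values. The submitters' processing notes name bcl2fastq 2.19, featureCounts and the build hg18. The aligner and the annotation are not given in the sources used here, and whether strand was used is not given either. Identifiers were Ensembl IDs, joined to symbols for 60295 IDs and to GENCODE 29 (GRCh38) for positions, so positions are those of the annotation and not of the authors' build.

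Counts were fitted with edgeR 4.0.16 in R 4.3.3, using filterByExpr, TMM, glmQLFit and glmQLFTest with group only, and Benjamini-Hochberg adjustment over 27514 features. The SE is the size of the log2 fold change over the square root of F. CPM hold no prior count. The size limit is that of the study's methods. Models were tested on simulated data. An exact permutation test of 3 against 3 cannot go under 0.1. Intervals and floors of 3 counts per library cover counting error or the spread between these libraries only. All 10 markers were named. From each list the text names at most 2 called genes in each direction by size of change, and list genes antisense to or overlapping a marker, and the 3 features most correlated with the marker of smallest p. The markers and lists were chosen with earlier results of these data known.

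Alternative analyses each replaced a step, and those with another tool or with FPKM also changed the scaling and the features tested. They took DESeq2 size factors or plain library size in place of TMM, or the DESeq2 1.42.0 Wald test in place of edgeR. The filter was dropped or set to a minimum of 10 counts per library. The replicate number was added as a block, and each library was left out. With limma 3.58.1, log2(FPKM + 1) and log2(FPKM + 0.1) were tested where 3 libraries reached an FPKM of 0.5, and the former also unfiltered. Levels per length were also taken as CPM per annotated exon length.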

Additional observations from a re-analysis of the deposited data

How the results depend on the processing

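The 4 called markers kept direction and call in all 15 alternatives, with log2 fold changes of 0.81 to 1.02 for CD44, −0.87 to −0.68 for SOX2, −1.25 to −0.89 for S100B and −2.19 to −0.51 for OLIG2. The size limit was less stable. With a library left out, 0 to 1 marker was past it upward and 1 to 2 downward, and 1 was past it downward with limma on log2(FPKM + 1), with or without a filter, where the pseudocount shrinks low genes such as OLIG2. The uncalled GFAP, NES and SOX9 turned sign while staying uncalled. With library size only, which moved the median of all features by −0.14, they were −0.12, −0.098 and −0.11. With limma on log2(FPKM + 1) they were −0.074, −0.10 and −0.11, filtered or not, and on log2(FPKM + 0.1) −0.076, −0.10 and −0.12. With a library left out they ranged from −0.15 to 0.33, from −0.060 to 0.10 and from −0.058 to 0.10.

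Over the marker lists, the 39 genes called higher became 19 with limma on log2(FPKM + 1), 19 on log2(FPKM + 0.1) and 21 without its filter, and 27 to 35 with a library left out, while the 22 called lower became 16 to 24 with a library left out, 28 with library size only, and 20, 20 and 23 in the limma fits in the same order. Over all features, 6094 higher and 5920 lower calls became 4665 and 7502 with library size only and 3676 and 6709 with limma on log2(FPKM + 1). These scalings differ from TMM, and the cause of the difference was not tested. For 46 other named genes, 74 of 646 alternative values lost the call. Directions are not counted here, because some of these genes passed the filter on low counts only through the group where they were high. The number of neighbouring markers that overlapped by level in control cells was 0 by FPKM and 1 by CPM per annotated length.

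The labels number the replicates in both groups, but same-numbered libraries did not deviate together (correlations −0.00723, 0.00351 and 0.0270), so the number was not taken as a pairing. With the replicate number as a block, the log2 fold changes were 0.97 for CD44, −0.72 for SOX2, −1.07 for S100B and −2.01 for OLIG2, and calls over all features were 10249 against 12014. AQP4, PROM1 and OLIG2 had at most 115 counts in a library, so counting error is largest for them among the markers. How much of each SE is counting error and how much is spread between the 3 libraries of a group was not tested.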
